A study of Rattus norvegicus with 6 samples.

Results

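The genes described here encode collagens, laminins, nidogens, fibronectin, decorin, lumican and SPARC, which build or bind the extracellular matrix, and the metalloproteases and inhibitors that remodel it. They were chosen by rat symbol: Col, Mmp, Timp, Adamts or Lama, Lamb and Lamc followed by a digit, plus Fn1, Nid1, Nid2, Dcn, Lum and Sparc. The rule takes in 109 symbols of the RefSeq table, of which 64 had a probe named through its RefSeq transcript. Of these, 51 passed the filter on dim probes (the scanner's flag for well above background, set on every array of the BBMP or of the control group) and were tested, among 31582 genes or sequences tested in all. Each gene was read from its brightest tested probe. Signals are given as the scanner's processed signal divided by the 75th percentile of its array, so that 1 is the level at that percentile, and levels of different genes are not compared because each probe has its own brightness.

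The treated animals were 3 male Sprague-Dawley rats dosed with BBMP, short for 2,2-bis(bromomethyl)-1,3-propanediol, a diol with bromine on its side arms, at 1000 mg/kg/day over 4 weeks. The controls were 3 male Sprague-Dawley rats given corn oil for that time. All rats were bought at 5 weeks of age, and total RNA of the renal cortex of each was hybridised to its own 1-colour Agilent array. The design sets matrix gene expression in the cortex of BBMP rats against that of control rats. The labels call the animals of a group replicates, and having 3 arrays in each limits the precision.

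Processed signals at the 75th percentile were 1244 to 1259 on BBMP arrays and 942.7 to 949.7 on control arrays, and 67.2% to 72.7% of probes were well above background. All BBMP arrays were on slide 2 and all control arrays on slide 1, and each slide was scanned separately, so an effect of BBMP and one of the slide or its scan cannot be told apart. The tissue label was checked against markers of the proximal tubule, the main epithelium of the cortex: all 8 were well above background on all 6 arrays. The kidney cortex holds several cell types, and in such bulk samples fewer cells of a type and less RNA per cell cannot be told apart.

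The extracellular matrix of the cortex has 2 forms. Basement membranes under the tubules, capillaries and podocytes are sheets of type IV collagen and laminin joined by nidogen. The sparse interstitium between tubules is held by fibrillar collagens, type VI collagen, fibronectin and small proteoglycans made by fibroblasts and pericytes. Matrix metalloproteases and ADAMTS enzymes cut these proteins, and tissue inhibitors of metalloproteases (TIMPs) block them; in renal fibrosis, interstitial collagens and fibronectin accumulate.

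Few matrix genes were called different between BBMP and control samples, though most of their differences were above 0. In limma's test over all genes with Benjamini-Hochberg adjustment, 5 of the 51 rose (Mmp2, Mmp15, Mmp28, Col6a2 and Col9a2) and 1 fell (Col4a4). That is 9.8% called higher where 10.2% of all genes tested were, and 1.96% called lower where 7.68% were. The share of matrix genes called was thus near or below the share among all genes (17.9% in either direction). None changed 2-fold. The median log2 difference, BBMP minus control, was 0.25 over the 51 genes and 0.05 over all genes tested, and 37 of the 51 differences (72.5%) were above 0, against 56.4% over all genes. The BBMP and control signals did not overlap in 19 of the 51 (37.3%), against 43.6% of all genes. BBMP was higher in 17 of these 19, where 25.0% of all genes were apart in that direction. It was lower in 2, where 18.6% of all genes were apart in that direction.

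Fewer genes were called with 1 array left out, among the matrix genes and among all genes. A fit on fewer arrays has less power, so a lost call does not show that it rested on the array left out. The genes called with all arrays kept their direction in each of these fits. Mmp2 was the 1 gene called higher without BBMP replicate 1 (1.69% of all genes called higher), without control replicate 1 (3.47%) and without control replicate 2 (2.99%). Without BBMP replicate 3, 2 genes were called higher (2.90% of all genes), and without control replicate 3 it was 5 (7.70%). Those 5 were Mmp2, Mmp15, Col6a2, Col5a1 and Fn1, of which 3 are among the 5 called with all arrays. Without BBMP replicate 2, limma called 0 matrix genes, with 17 at an unadjusted p under 0.05, and 0.00950% of all genes. All BBMP arrays and control replicate 3 were in row 1 of their slides, and control replicates 1 and 2 were in row 2. With slide row as a block, the difference therefore rested on control replicate 3 alone, so that fit cannot test the calls. Its median difference over the 51 genes was 0.11. With any array left out, 0 matrix genes were called lower, where 0 to 4.97% of all genes were. Among matrix genes, control replicate 1 gave the lowest of the 3 control signals in 30 of the 51 (58.8%), against 36.6% of all genes, and without it the median difference was 0.17. The median standard deviation between arrays of a group, on the log2 scale, was 0.20 in BBMP and 0.21 in control samples for matrix genes. It was 0.11 and 0.12 for all genes. With a wider spread, a difference of a given size is less likely to be called, which limits the comparison of the shares called.

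**Figure D1:**
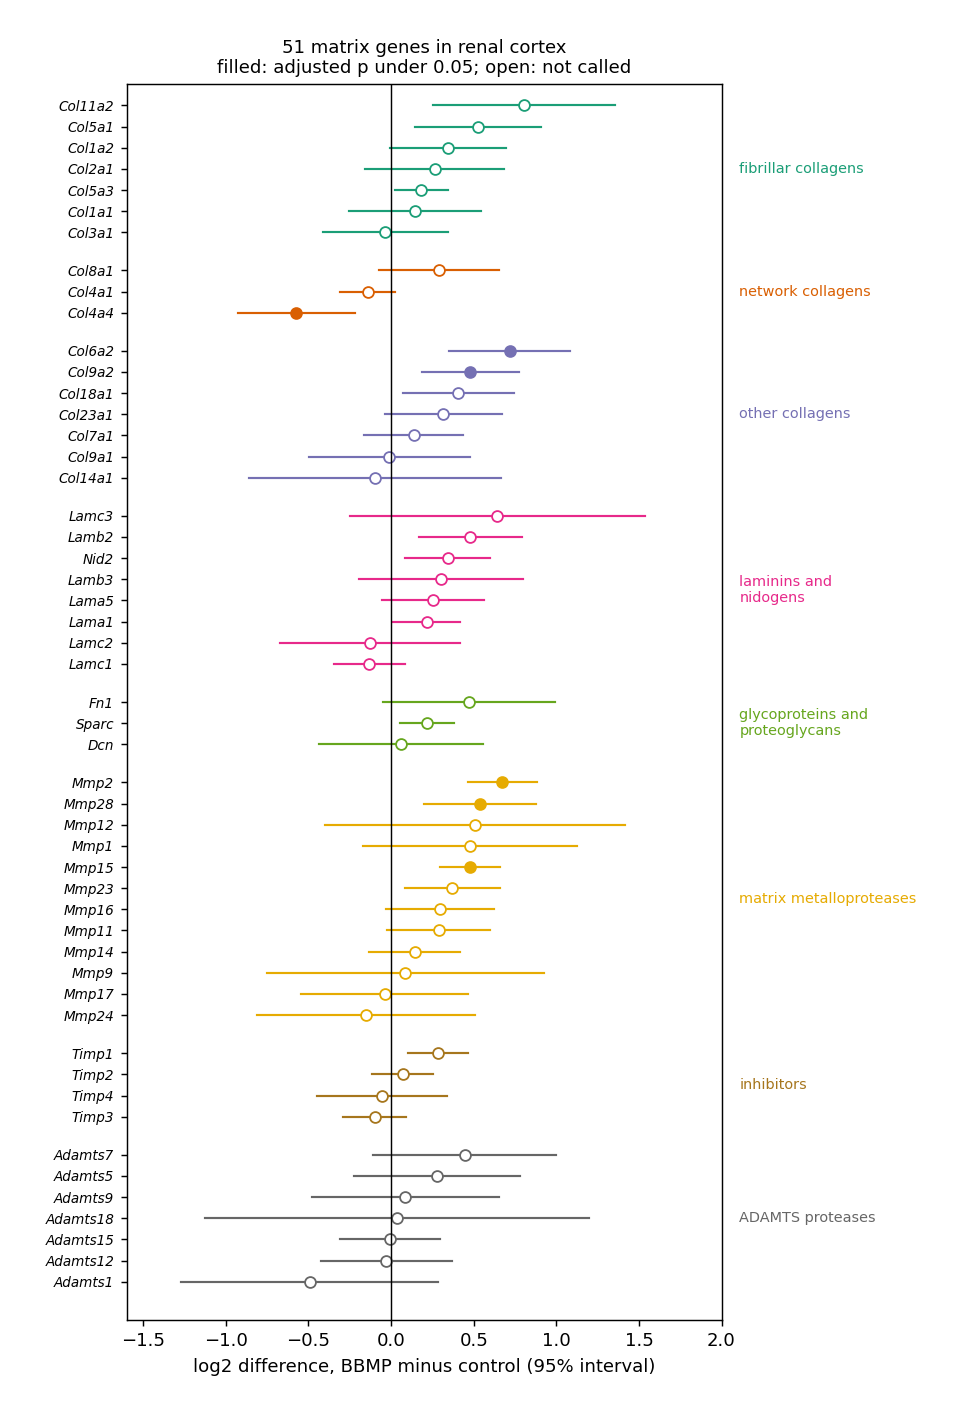
Log2 difference, BBMP minus control, of the 51 tested matrix genes with its 95% interval from limma, grouped by role (3 BBMP and 3 control arrays). The 6 filled points, 5 to the right of 0 and Col4a4 to the left, passed an adjusted p of 0.05.

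Among 12 tested matrix metalloproteases, 3 rose and 0 fell, where 10.2% of all genes rose and 7.68% fell. Of the 12 differences, 10 were above 0, against 56.4% of all genes. The same shares of all genes apply to the counts of the other roles and lists below. Mmp2 encodes gelatinase A, which cuts denatured collagen and type IV collagen. Its signal was 2.44, 2.06 and 2.06 in BBMP samples and 1.37, 1.39 and 1.35 in control samples. Each BBMP signal exceeded all control signals, and the control arrays lay close together. The rise was 1.59-fold (log2 difference 0.67 ± 0.08, SE, n = 3 each; limma adjusted p = 0.0128). Mmp2 was called in 5 of the 6 fits that left out 1 array and narrowly missed without BBMP replicate 2 (log2 difference 0.71, adjusted p = 0.0528). Its other tested probe differed by 0.47 ± 0.14 and was not called over all probes (adjusted p = 0.0719), where 17.8% of probes were.

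Mmp15 encodes a membrane-anchored metalloprotease that can activate the proform of gelatinase A. Its signal was 64.8, 67.3 and 58.4 in BBMP samples and 45.8, 46.3 and 44.6 in control samples. The groups were well apart, and the rise was 1.39-fold (log2 difference 0.48 ± 0.07, SE, n = 3 each; limma adjusted p = 0.0165). Of its other probes, both much dimmer, 1 was also called higher, at 0.59 ± 0.11, and 1 was not, at 0.24 ± 0.13. Mmp15 was called without BBMP replicate 3 or control replicate 3, and lay at adjusted p from 0.0514 to 0.0596 without any of the other 4 arrays.

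Mmp28 encodes epilysin, a secreted metalloprotease of epithelia. Its signal was 0.182, 0.213 and 0.252 in BBMP samples and 0.162, 0.138 and 0.142 in control samples. The groups did not overlap, but the nearest BBMP and control arrays were close, and the gene is dim. The rise was 1.45-fold (log2 difference 0.54 ± 0.14, SE, n = 3 each; limma adjusted p = 0.0471). Genes of like brightness, in the same of 10 equal bins by signal, had a median difference of 0.06. With normexp background correction the difference of Mmp28 was 0.29 and it was not called (adjusted p = 0.0998), nor was it with quantile normalization, cyclic loess or median scaling (0.45 to 0.48). Mmp28 was called in 0 of the 6 fits that left out 1 array (0.42 to 0.66, limma adjusted p from 0.0563 to 0.120).

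Promoters are shown for the called genes that have one in the table; RefSeq's table for GRCr8 held a window for 34 of the 51 genes, among them 4 of the 6 called (Mmp15, Mmp28, Col4a4 and Col9a2). Each window is 300 bases, from upstream of the gene's start to just after it, printed 5′ to 3′ on the gene's strand. Mmp15 lies on the minus strand at chr19:9690951-9691250, Mmp28 on the minus strand at chr10:68762328-68762627 and Col9a2 on the plus strand at chr5:139892548-139892847, all in GRCr8. Capitals mark each match, on either strand, to GGGCGG (the GC box), TATAAA (the TATA box) or TGANTCA (the AP-1 site).
Mmp15: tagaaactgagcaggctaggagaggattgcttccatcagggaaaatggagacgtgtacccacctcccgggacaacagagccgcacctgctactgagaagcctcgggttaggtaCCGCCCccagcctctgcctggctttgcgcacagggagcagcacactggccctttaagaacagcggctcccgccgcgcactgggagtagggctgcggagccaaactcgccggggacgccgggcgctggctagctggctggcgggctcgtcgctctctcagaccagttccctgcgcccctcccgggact
Mmp28: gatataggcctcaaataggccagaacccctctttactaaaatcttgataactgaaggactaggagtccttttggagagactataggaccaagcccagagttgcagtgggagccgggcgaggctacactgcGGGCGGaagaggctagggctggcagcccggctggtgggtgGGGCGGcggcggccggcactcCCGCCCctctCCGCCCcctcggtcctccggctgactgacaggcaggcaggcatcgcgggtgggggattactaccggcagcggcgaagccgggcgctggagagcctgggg
Col9a2: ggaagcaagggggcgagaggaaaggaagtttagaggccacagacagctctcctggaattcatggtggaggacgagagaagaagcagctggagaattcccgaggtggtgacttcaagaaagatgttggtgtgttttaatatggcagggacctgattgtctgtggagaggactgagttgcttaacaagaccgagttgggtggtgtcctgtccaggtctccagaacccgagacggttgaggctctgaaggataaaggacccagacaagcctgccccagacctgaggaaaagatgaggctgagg
Mmp15 had 1 match and Mmp28 had 4, all of them to GGGCGG read on either strand, and Col9a2 and Col4a4 (printed further on) had 0. Over the 34 matrix promoters, 21 (61.8%) held GGGCGG, against 34.9% of the 27457 promoters of this length in the table. TATAAA was in 5 of the 34 (14.7%), against 14.3% of all, and TGANTCA in 2 (5.88%), against 7.33%. A match is a description of letters in this window only.

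Other metalloproteases did not pass the test. Mmp14, the membrane-anchored enzyme best known as an activator of gelatinase A, had signals of 5.07, 4.23 and 4.65 in BBMP samples and 3.76, 4.22 and 4.68 in control samples, which overlapped (log2 difference 0.14 ± 0.11, SE). Mmp9, gelatinase B of leukocytes, had 0.109, 0.0622 and 0.120 in BBMP samples and 0.0653, 0.126 and 0.0823 in control samples. These overlap fully, with a 95% interval of the difference from -0.75 to 0.93, so a change of either sign was not detectable, and the estimate was below 0 with normexp, quantile normalization and cyclic loess. Mmp24, a membrane-anchored enzyme, had 0.350, 0.456 and 0.379 in BBMP samples and 0.413, 0.315 and 0.637 in control samples, and also overlapped. Mmp12, macrophage elastase, had the largest difference of those not called, 0.51 ± 0.37 (SE, limma adjusted p = 0.365). It is dim, and genes of like brightness had a median difference of 0.155. Of the 24 symbols of this role, 21 had a probe and 9 of those were not well above background on all arrays of a group, including Mmp7, Mmp3, Mmp8, Mmp10 and Mmp13, each below that level on all 6 arrays.

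Of the 4 TIMPs tested, none was called, and their differences were above 0 in 2 and below 0 in 2, and Timp2 turned below 0 with median scaling and with slide row as a block. Timp1, the inducible TIMP that rises in fibrotic kidneys, had signals of 2.23, 2.23 and 2.36 in BBMP samples and 1.86, 2.01 and 1.75 in control samples. The groups did not overlap, and the difference of 0.28 ± 0.07 (SE, n = 3 each) just missed the threshold (limma adjusted p = 0.0505). It was called with quantile normalization (adjusted p = 0.0461) and was 0.12 with normexp. Timp2, which also takes part in activating gelatinase A, had 16.6, 15.2 and 15.0 in BBMP samples and 14.0, 14.7 and 15.7 in control samples, and the groups overlapped. Timp3, the TIMP bound to matrix, had 2.57, 2.32 and 2.29 in BBMP samples and 2.63, 2.66 and 2.41 in control samples, also overlapping. The 95% interval of the difference ran from -0.11 to 0.26 for Timp2 and from -0.29 to 0.09 for Timp3.

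**Figure D2:**
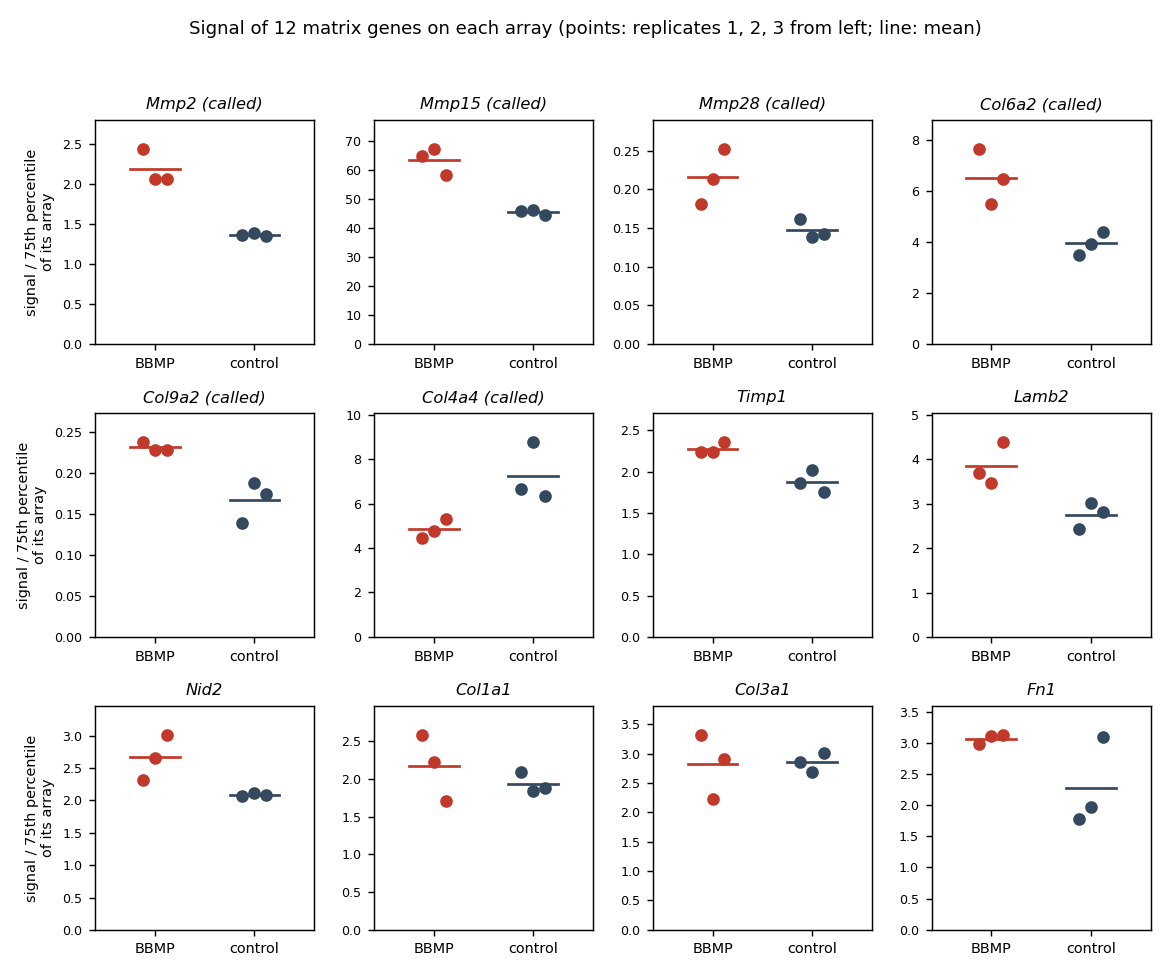
Processed signal over the array's 75th percentile for 12 matrix genes on 3 BBMP (red) and 3 control (dark blue-grey) arrays; points are single arrays, replicates 1 to 3 from the left, and lines are means. In the 6 called genes the groups are apart, Timp1, Lamb2 and Nid2 are apart without a call, and Col1a1, Col3a1 and Fn1 overlap.

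Col4a4 was the only one of the 51 genes called lower. It encodes the alpha-4 chain, which with the products of Col4a3 and Col4a5 forms the network of the mature glomerular basement membrane and is altered in human Alport syndrome. Its signal was 4.44, 4.77 and 5.28 in BBMP samples and 6.65, 8.76 and 6.33 in control samples. Each BBMP array was below all control arrays, and control replicate 2 was the highest. The fall was 1.49-fold (log2 difference -0.57 ± 0.14, SE, n = 3 each; limma adjusted p = 0.0460). The second probe of Col4a4 differed by -0.58 ± 0.15 and was also called (adjusted p = 0.0466 over all probes). Col4a4 was also called lower with normexp, quantile normalization, cyclic loess, median scaling and the percentile over detected probes, at -0.65 to -0.56, and in 0 of the 6 fits without 1 array, where adjusted p ran from 0.0541 to 0.127.

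Podocytes make this chain in the glomerulus, so their markers are given beside it. All 7 podocyte markers were well above background on all arrays; 2 were called higher and 0 lower, among them Synpo (synaptopodin), higher by 0.40 ± 0.07 (SE; limma adjusted p = 0.0191). Nphs1, Wt1 and Podxl differed by -0.03, -0.06 and -0.28 and did not pass. Of the 7 differences, 4 were above 0. The summed signal of the podocyte markers was 38.4 to 43.0 in BBMP samples and 39.7 to 43.7 in control samples, which overlap.

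The promoter of Col4a4 is shown because it adjoins that of Col4a3, which is transcribed from the other strand and had no probe named here. The window is on the minus strand at chr9:91323528-91323827 in GRCr8, and capitals mark the 88 bases shared with the Col4a3 window.
Col4a4: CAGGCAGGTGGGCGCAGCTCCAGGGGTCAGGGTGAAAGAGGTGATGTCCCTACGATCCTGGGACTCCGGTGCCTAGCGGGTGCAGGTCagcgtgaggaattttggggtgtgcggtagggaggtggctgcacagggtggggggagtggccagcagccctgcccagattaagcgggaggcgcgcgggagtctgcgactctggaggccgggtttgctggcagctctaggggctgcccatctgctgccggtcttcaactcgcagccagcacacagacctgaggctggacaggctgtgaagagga
The capitals fill positions 1 to 88, the upstream end of the Col4a4 window.

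Col4a1 encodes a chain of the type IV collagen found in all basement membranes. Its signal was 19.9, 19.8 and 18.8 in BBMP samples and 20.8, 20.8 and 22.9 in control samples. All BBMP arrays were lower than all control arrays, but the difference of -0.14 ± 0.07 (SE, n = 3 each) did not pass (limma adjusted p = 0.186). Among 3 further probes of Col4a1, 2 lay below 0 and 1, the dimmest, was at 0.24 ± 0.07. Col8a1, of the short-chain type VIII collagen of vessels, was the remaining network collagen tested, at 0.29 ± 0.15 (limma adjusted p = 0.214). Col8a1 was at -0.15 with normexp, which was run on median signals with an added offset. Of the 9 network collagens in the rule, 3 had a named probe, and Col4a2, Col4a3, Col4a5 and Col4a6 were not analysed here.

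Among 8 laminin and nidogen genes tested, 0 were called, where 17.9% of all genes were. Of their differences, 6 were above 0, against 56.4% of all genes, and the median was 0.28. Lamb2 encodes the beta-2 chain of the laminin of the glomerular basement membrane. Its signal was 3.69, 3.46 and 4.39 in BBMP samples and 2.43, 3.02 and 2.81 in control samples. The groups did not overlap, and the difference of 0.48 ± 0.13 (SE, n = 3 each) lay just past the threshold (limma adjusted p = 0.0507). Lamb2 was called with quantile normalization, cyclic loess and normexp (adjusted p = 0.0469, 0.0492 and 0.0450). Lama5, the alpha chain of the same laminin, had 4.84, 4.24 and 4.71 in BBMP samples and 3.30, 3.87 and 4.47 in control samples, which overlapped (0.25 ± 0.13, SE; limma adjusted p = 0.203). A much dimmer probe of Lama5 was called higher, at 0.79 ± 0.06 (adjusted p = 0.0113 over all probes), and the remaining probe was at 0.22 ± 0.12.

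Nid2, which links laminin to type IV collagen, had signals of 2.32, 2.66 and 3.01 in BBMP samples and 2.07, 2.11 and 2.09 in control samples. The groups were apart, at 0.34 ± 0.10 (SE, n = 3 each; limma adjusted p = 0.0712), and the other probe of Nid2, a dim one, was called higher at 0.75 ± 0.10 (adjusted p = 0.0132 over all probes). Lamc1, the gamma chain of most laminins, had 3.98, 3.51 and 3.89 in BBMP samples and 3.80, 4.35 and 4.34 in control samples, overlapping. Its difference was -0.13 ± 0.09 and both other probes, much dimmer, were positive (0.09 and 0.29), so its direction depended on the probe. Lamc3, a dim gene, had the largest difference of the role, 0.64 ± 0.36 (limma adjusted p = 0.251), and was at -0.03 with normexp. Genes of like brightness had a median difference of 0.155. Of the 14 genes of this role in the rule, 8 had a named probe and all 8 were tested.

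**Figure D3:**
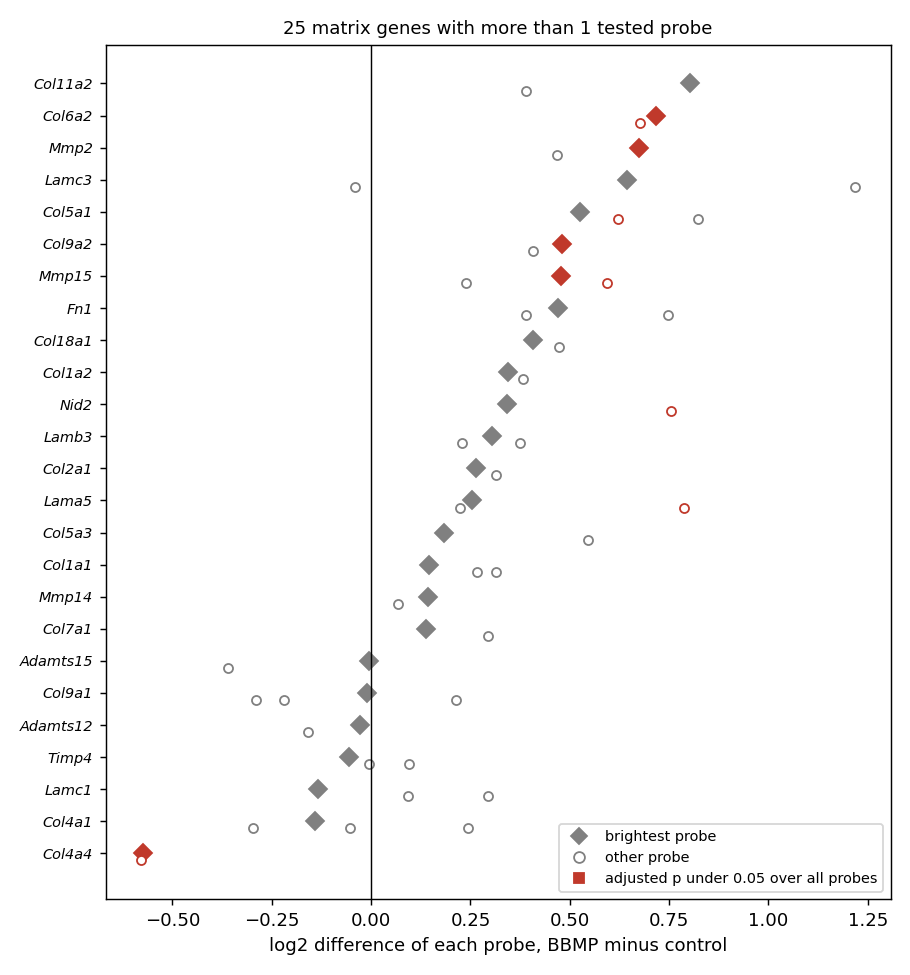
Log2 difference, BBMP minus control, of every tested probe of the 25 matrix genes with more than 1; diamonds are the brightest probe, open circles the others, and red marks an adjusted p under 0.05 over all probes. All probes of a gene fell on the same side of 0 in 20 of the 25 genes, and not in Lamc3, Col9a1, Timp4, Lamc1 and Col4a1.

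Col6a2 and Col9a2 rose. Col6a2 encodes a chain of type VI collagen, which forms beaded microfibrils around interstitial cells. Its signal was 7.63, 5.48 and 6.45 in BBMP samples and 3.49, 3.94 and 4.41 in control samples. The groups were clearly separate, and the rise of 1.64-fold was the largest among called matrix genes (log2 difference 0.72 ± 0.15, SE, n = 3 each; limma adjusted p = 0.0293). Its second probe, a much dimmer one, was also called, at 0.68 ± 0.17 (limma adjusted p = 0.0479 over all probes). Col6a2 was called under all 5 other scalings (0.64 to 0.73). With 1 array left out, it was called without control replicate 3 and not in the other 5 fits (0.60 to 0.84, adjusted p from 0.0554 to 0.082). Col6a1 and Col6a3, the partner chains, had no probe named here.

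Col9a2 encodes a chain of type IX collagen, best known from the surface of cartilage fibrils. Its signal was 0.238, 0.229 and 0.229 in BBMP samples and 0.140, 0.188 and 0.175 in control samples. The groups did not overlap, and the rise was 1.40-fold (log2 difference 0.48 ± 0.12, SE, n = 3 each; limma adjusted p = 0.0446). This gene is dim and its call was fragile: it was called in 0 of the 6 fits that left out 1 array (limma adjusted p from 0.0566 to 0.120). With normexp, quantile normalization, cyclic loess and median scaling Col9a2 was at 0.27 to 0.44 and not called (adjusted p from 0.0565 to 0.0739). Its second probe was at 0.41 ± 0.18 and was not called. Col18a1, whose collagen sits in basement membranes and releases endostatin, had 6.45, 7.20 and 8.11 in BBMP samples and 5.48, 6.26 and 4.70 in control samples, apart but not called (0.41 ± 0.14, SE; limma adjusted p = 0.0900). Of the other 4 genes in this role, 0 were called, and their differences ran from -0.10 to 0.32. The last of these, Col23a1, named here after its values were seen, was the 1 tested gene well above background on fewer than all arrays, with 3 BBMP and 2 control arrays.

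Fibrillar collagens, which make the load-bearing fibres of the interstitium and rise in fibrosis, had 0 of 7 called and a median difference of 0.26. Col1a1, a chain of type I collagen, had signals of 2.58, 2.22 and 1.71 in BBMP samples and 2.10, 1.84 and 1.88 in control samples. The groups overlapped, with a difference of 0.15 ± 0.16 (SE, n = 3 each; limma adjusted p = 0.551) and a 95% interval from -0.25 to 0.54. Col1a2, the partner chain, had 15.9, 12.4 and 12.2 in BBMP samples and 10.02, 9.66 and 12.1 in control samples. These were just apart, at 0.34 ± 0.14 (limma adjusted p = 0.141), and Col1a2 was called with normexp (0.47, adjusted p = 0.0326). Col3a1, of type III collagen, had 3.32, 2.24 and 2.91 in BBMP samples and 2.87, 2.69 and 3.01 in control samples. Its difference was -0.03 ± 0.15, with an interval from -0.41 to 0.34, so these data bound a change of Col3a1 in either direction loosely.

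The largest differences among fibrillar collagens were in minor chains. Col11a2 was at 0.80 ± 0.22 (SE; limma adjusted p = 0.0585), the largest difference of all 51 genes at 1.74-fold, and Col5a1, which helps start type I fibrils, at 0.53 ± 0.15 (adjusted p = 0.0662). Both had groups that did not overlap and missed the threshold. Of the 3 probes of Col5a1, 1 was called higher, at 0.62 ± 0.16 (adjusted p = 0.0455 over all probes), and without control replicate 3 Col5a1 was called (adjusted p = 0.0413).

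Of the glycoproteins and proteoglycans, 0 of 3 tested were called. Fn1, fibronectin, the adhesive glycoprotein laid down early in fibrosis, had signals of 2.97, 3.11 and 3.12 in BBMP samples and 1.77, 1.98 and 3.10 in control samples. The BBMP arrays were close together, and control replicate 3 was as high as they were. The difference was 0.47 ± 0.21 (SE, n = 3 each; limma adjusted p = 0.168). Fn1 was called without control replicate 3, at 0.71 (adjusted p = 0.0281), so this 1 array decided its call. With slide row as a block, that is against control replicate 3 alone, Fn1 was at -0.01.

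Sparc, a matricellular protein that binds collagen, had 48.8, 46.3 and 46.5 in BBMP samples and 38.2, 41.4 and 42.4 in control samples, apart by a small 0.22 ± 0.07 (limma adjusted p = 0.0743). Dcn, decorin, the small proteoglycan that binds collagen fibrils, had 6.43, 4.80 and 4.22 in BBMP samples and 4.02, 5.76 and 4.96 in control samples, which overlapped. Lum, lumican, was below that level on every array.

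ADAMTS proteases, which cut proteoglycans and procollagens, had 0 of 7 called and a median difference of 0.04, and that median was below 0 with quantile normalization, cyclic loess and median scaling. Adamts1, which cleaves versican and aggrecan, had signals of 4.01, 4.66 and 4.57 in BBMP samples and 10.2, 5.27 and 4.42 in control samples. Control replicate 1 was far above the other 5 arrays, which lay close together. The difference was -0.49 ± 0.32 (SE, n = 3 each; limma adjusted p = 0.306), and it was -0.13 without control replicate 1. Adamts7 and Adamts5 were at 0.45 ± 0.23 and 0.28 ± 0.20 and did not pass. Of the 19 genes of this role in the rule, 9 had a named probe and 7 were tested.

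Beyond the 6 calls, 8 of the 51 genes had an adjusted p from 0.05 to 0.1, all of them higher in BBMP: Timp1, Lamb2, Col11a2, Col5a1, Nid2, Sparc, Mmp23 and Col18a1. Of all genes, 12.3% lay in that range. Mmp23 is named after its values were seen, at 0.37 ± 0.12 (SE; limma adjusted p = 0.0771). Untested symbols were 58 in all: 45 had no probe named through the table, and 13 had a probe that was not well above background on all arrays of either group. The nearest to the filter among these was Adamts19, named after its values were seen, with 2 BBMP arrays and 0 control arrays.

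**Figure D4:**
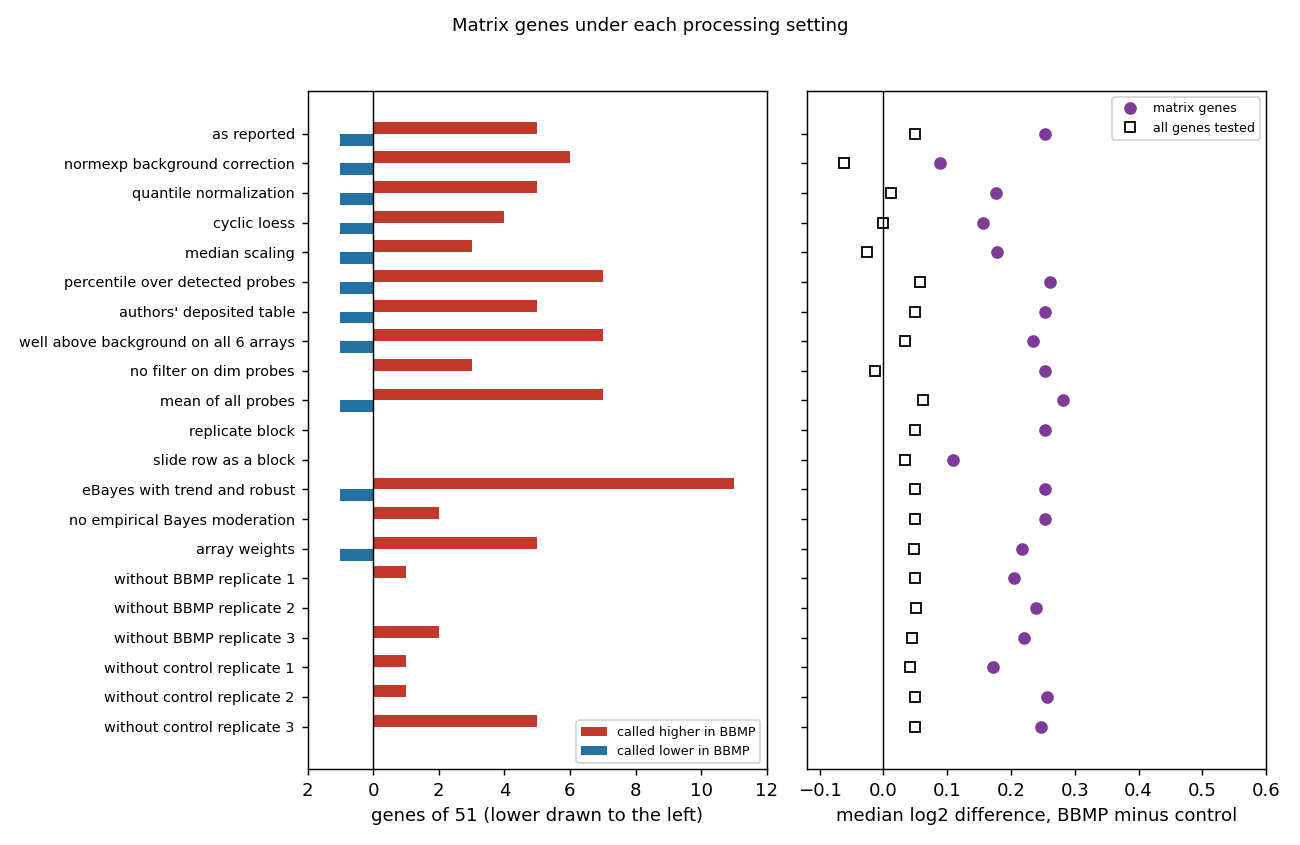
Left, number of the 51 matrix genes called higher (red) or lower (blue, drawn to the left) in BBMP under each processing setting; right, median log2 difference, BBMP minus control, of the matrix genes (purple circles) and of all genes tested (open squares). The median of the matrix genes stayed above that of all genes in each setting, while the calls higher ranged from 0 to 11.

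Under 11 of the other settings, the number of matrix genes called higher is given with the share of all genes called higher. It was 11 (11.5% of all genes called higher) with a trended and robust eBayes, 7 (9.97%) with the mean of a gene's probes, 7 (10.6%) with the percentile over detected probes and 6 (9.24%) with normexp. It was 5 with array weights (11.1%), with quantile normalization (8.20%) and with the authors' deposited table (10.2%), and 4 with cyclic loess (8.04%). Median scaling gave 3 (6.66%), no filter on dim probes 3 (4.59%) and no empirical Bayes moderation 2 (7.01%).

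The other genes of matrix assembly and turnover were read from 5 lists of 125 genes, of which 100 were tested. In them 8 rose and 7 fell, fewer per 100 than the 10.2% and 7.68% of all genes, with a median difference of 0.06. Among 20 enzymes that process collagen, 2 rose and 2 fell. Ppib, the cyclophilin of the endoplasmic reticulum that helps collagen fold, had 14.6, 14.9 and 14.8 in BBMP samples and 20.3, 20.4 and 20.6 in control samples. Its groups were far apart against their spread, and it fell 1.38-fold (log2 difference -0.47 ± 0.05, SE; limma adjusted p = 0.0116). Plod2, a lysyl hydroxylase that sets collagen cross-links, was lower too (-0.52 ± 0.08; adjusted p = 0.0168). Colgalt1, which adds galactose to collagen, was higher by 0.36 ± 0.09 (adjusted p = 0.0464), as was P4hb, a subunit of prolyl hydroxylase, by 0.20 ± 0.05 (adjusted p = 0.0470).

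Of 18 genes of TGF-beta signalling, the main profibrotic pathway, 2 rose and 1 fell. Tgfbr1, the type I receptor, had 1.78, 1.91 and 1.91 in BBMP samples and 2.77, 2.54 and 2.45 in control samples. It was lower on every BBMP array (-0.47 ± 0.07, SE; limma adjusted p = 0.0166). The ligand gene Tgfb3 was higher by 0.59 ± 0.13 (adjusted p = 0.0358) and Ltbp2, which encodes a microfibril protein, by 0.82 ± 0.20 (adjusted p = 0.0410), both dim. Tgfb1, the ligand most tied to fibrosis and named here after its values were seen, did not pass, at 0.40 ± 0.11 (adjusted p = 0.0576).

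Of 15 matrix receptors, 2 rose and 1 fell: Itgb4, the integrin of hemidesmosomes that binds laminin, by 0.36 ± 0.05 (limma adjusted p = 0.0165), and the syndecan gene Sdc1 by 0.49 ± 0.11 (adjusted p = 0.0349), while Gpc3, a glypican, was at -0.77 ± 0.20 (adjusted p = 0.0484). Of 28 other glycoproteins and proteoglycans, 1 rose and 2 fell. Prelp, a leucine-rich proteoglycan, was higher by 0.43 ± 0.09 (adjusted p = 0.0298), whereas Tinag, an antigen of the tubular basement membrane, was at -0.25 ± 0.06 (adjusted p = 0.0367) and Ltbp1, which stores latent TGF-beta, at -0.43 ± 0.10 (adjusted p = 0.0424).

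Of 19 genes of the plasminogen system and other matrix proteases, 1 rose and 1 fell. Plg, plasminogen, the precursor of plasmin, had 2.125, 1.863 and 2.045 in BBMP samples and 1.41, 1.35 and 1.32 in control samples. It rose 1.48-fold (log2 difference 0.56 ± 0.07, SE, n = 3 each; limma adjusted p = 0.0133). Adam9, a membrane-anchored metalloprotease, was at -0.62 ± 0.14 (adjusted p = 0.0365).

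Markers of the cells that make interstitial matrix are given for comparison, where 10.2% of all genes were called higher and 7.68% lower. Of 6 tested fibroblast and pericyte markers, Vim was called higher, by 0.31 ± 0.06 (SE; limma adjusted p = 0.0254), and 0 fell, while Pdgfrb and Pdgfra were at -0.24 and -0.18 and did not pass. Their summed signal was 11.1 to 11.5 in BBMP samples and 11.4 to 12.3 in control samples. Of 4 smooth muscle and myofibroblast markers, Des was called higher, by 0.44 ± 0.08 (adjusted p = 0.0212), and Acta2, smooth muscle actin, was at 0.06 ± 0.08 and did not pass. The sums of this list were 2.56 to 2.84 in BBMP samples and 2.25 to 2.64 in control samples. Among markers of other cells, Cdh5, the endothelial cadherin, was higher by 0.51 ± 0.08 (limma adjusted p = 0.0158), as 1 of 7 tested endothelial markers called. Of these 7 differences, 4 were above 0 and 3 below, among them Pecam1 at -0.34, lower on every BBMP array. The endothelial sums were 31.3 to 32.6 in BBMP samples and 31.2 to 39.5 in control samples. Csf1r, a macrophage receptor, was higher by 0.42 ± 0.08 (limma adjusted p = 0.0274), as 1 of 7 leukocyte markers called. Of these 7 differences, 3 were above 0 and 4 below. The leukocyte sums were 39.5 to 50.5 in BBMP samples and 35.7 to 72.4 in control samples. Of 5 markers of medulla, papilla and urothelium, Upk1b, a uroplakin, was higher by 0.69 ± 0.16 (adjusted p = 0.0378) and Aqp4, a water channel, was at -0.61 ± 0.10 (adjusted p = 0.0197); their sums were 0.8116 to 0.8909 in BBMP samples and 0.9005 to 0.9694 in control samples. Of the markers of the proximal tubule (8), the thick ascending limb and distal tubule (4) and the collecting duct (5), 0 were called by limma, with 0, 1 and 1 at an unadjusted p under 0.05. The part of these cell types in the results above was not tested.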

How the data were processed

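Cy3 was the label of all samples, per the labels' protocols, and per the file headers the arrays were read with Agilent Feature Extraction 10.7.1.1 (10.7 in the submitters' processing notes). Each array's deposited scanner file gives, per the file headers, linear intensity per spot together with flags scored 0 or 1 for well above background, saturated and outlying spots. The authors' deposited table gives a ratio per probe, which equals the processed signal over the 75th percentile of another array of the same group; replicate numbers are therefore uncertain, group membership is not, and its column medians were 0.1064 to 0.1131.

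Of 61657 probes not marked as controls, 84 ERCC spike-in probes and 10 flagged outliers were left out. Log2 processed signal minus each array's 75th percentile was tested for probes well above background on all 3 arrays of a group (42657 probes; brightest probe per gene), with limma 3.58.1 in R 4.3.3 (lmFit, eBayes, two-sided, adjusted by Benjamini-Hochberg over all genes, threshold 0.05). The unversioned RefSeq accession named 27452 probes through a GRCr8 table; the array design is older. Alternatives changed the background correction, scaling, filter, probe choice, test, blocks and arrays; normexp used an offset of 50 on median signals. The fit was tested on simulated data. Values in every sample were given for called genes and a fixed list of members, other genes by the 3 largest differences of a role; pathway genes named are the called ones, apart from Tgfb1. Members and lists were chosen with earlier results of these data known. Plots were made in Python 3.11.15 with matplotlib 3.10.9. The values of 1 called marker gene are not reported here.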

Additional observations from a re-analysis of the deposited data

How the results depend on the processing

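The median difference of the matrix genes stayed above 0 under all alternatives, between 0.09 (normexp) and 0.28 (mean of a gene's probes), and from 0.17 to 0.26 with 1 array left out. Counts of calls moved more. With 1 array left out, 0 to 5 matrix genes were called higher and 0 lower. Of the 100 other genes of matrix assembly, 0 to 5 were then higher and 0 to 5 lower. Among all genes, 0.00950% to 7.70% were higher in these fits and 0 to 4.97% lower. Of the 100 other genes, 5 were higher with quantile normalization (8.20% of all genes), 5 with cyclic loess (8.04%) and 4 with median scaling (6.66%). Median scaling also had 11 of the 100 lower, where 11.9% of all genes were, and 3 matrix genes higher. Without the filter on dim probes, 3 matrix genes were higher and 0 lower, and 2 and 3 of the others, where 4.59% and 5.13% of all genes were. Without empirical Bayes moderation the counts were 2 and 0, and 3 and 4, where 7.01% and 6.40% of all genes were called. The trended and robust eBayes called 11 matrix genes higher, and 11.5% of all genes. The split of calls over all genes moved with the processing: 57.1% of them were higher as reported, 36.4% with normexp, 46.6% with cyclic loess and 35.9% with median scaling, and all-gene medians moved from 0.05 to -0.06 with normexp.

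Among named matrix genes, sign turned in values that were not called: with normexp Col3a1 0.0042, Col8a1 -0.15, Lamc3 -0.031 and Mmp9 -0.0031; Mmp9 -0.00099 with quantile normalization, -0.061 with cyclic loess and -0.026 with array weights; Dcn -0.016 and Timp2 -0.0042 with median scaling; Lamc1 0.085 with the mean of its probes. With slide row as a block, which set BBMP against control replicate 3 alone, Fn1 was -0.015, Lamc3 -0.097, Mmp14 -0.014 and Timp2 -0.015. With 1 array left out, Col3a1 ran from -0.16 to 0.12, Dcn from -0.11 to 0.19, Mmp24 from -0.39 to 0.12 and Mmp9 from -0.13 to 0.38. The cause of the changes in the other settings was not tested.

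The replicate numbers were not taken to pair the samples. Deviations of same-numbered arrays from their group means correlated at -0.116, -0.082 and -0.0676, and those of differently numbered arrays at -0.05 to 0.123. No number correlated best with itself. Because replicate numbers are uncertain and all these values are small, they cannot exclude a pairing. With the replicate block limma called 0 of all 31582 genes tested, higher or lower, and so 0 matrix genes. At an unadjusted p under 0.05 were 14 of the matrix genes and 30 of the 100 others. Dim probes, such as those of Mmp28, Col9a2, Mmp9 and Mmp12, limit what the arrays can show. Over all genes tested, the median difference was 0.287 in the dimmest of 10 equal bins by signal, 0.155 in the next and 0.01 in the brightest. The part of this shift in the differences of dim matrix genes, and in their median, was not tested.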
